A study of Mus musculus with 2 samples.

Results

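Endothelial cells line blood and lymph vessels, and here they are 157 of the 6241 barcodes kept from 2 single-cell libraries of mouse colon. They number 74 in the library of the transgenic Alzheimer's disease model (AD) and 83 in the wild-type library (WT). A barcode was taken when it held at least 200 genes, at most 25% mitochondrial UMIs (unique molecular identifiers, 1 per captured RNA molecule) and no UMI of the pan-leukocyte gene Ptprc. It also needed at least 3 of the 10 genes Pecam1, Cdh5, Kdr, Flt1, Flt4, Tie1, Egfl7, Plvap, Esam and Emcn, with Pecam1 or Cdh5 among them. The epithelial genes Epcam, Krt8, Krt18, Krt19, Cldn7 and Lgals4 had to stay together under 0.3% of its UMIs, and Spp1 could have at most 2 UMIs. Members with at least 2 of Lyve1, Prox1, Reln and Flt4 were set apart as lymphatic, 8 in the AD and 8 in the WT library, which leaves 66 AD and 75 WT other members. The members were thus chosen by measured values of these genes, so the levels of the rule genes are given as a description.

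The AD colon carries the transgenic genotype that the study's design names APP/PS1-21, a line that expresses mutant human amyloid precursor protein and presenilin 1, by general knowledge under a neuronal promoter. The WT colon carries no transgene per its label. The labels used here give neither age nor sex, and do not say whether a library pools animals. Colon was minced, digested with trypsin and DNase I and freed of red cells before droplet capture, although the design text speaks of colonic epithelium. With 1 library per genotype, a difference between AD and WT has no replicate check and no test, and every interval below is a 95% interval that covers counting error only.

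Vessels are lined by a continuous endothelial sheet whose cells differ by vessel type. Arterial cells use Notch signalling, capillary cells carry the machinery of exchange such as fatty acid binding proteins and carbonic anhydrase, and venules carry the receptors that let leukocytes leave the blood. Vascular endothelial growth factor (VEGF) receptors and the angiopoietin receptors keep these cells alive and quiescent. Lymphatic cells depend on the transcription factor Prox1 and the receptor Flt4, and in the gut they take up fat and drain fluid and immune cells. Transcription factors of the ETS family, such as Erg, Fli1 and Ets1, drive endothelial genes and bind a core of GGAA.

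The promoters of 4 genes of the rule are shown because the genes that most set these cells apart in both libraries often carry AGGAAG, a longer sequence that holds this core. The sequences are those of RefSeq on GRCm38.p6, from 250 bases before to 50 bases after the gene start, written 5′ to 3′ along the gene, and capitals mark AGGAAG or, on the other strand, CTTCCT. Of the 15 genes named below as most enriched, 11 had a promoter in the table, and 10 of these 11 (90.9%) held a match. Among all 32851 promoters 35.4% held one. The rule fixed the enrichment of Kdr, Flt1, Tie1 and Emcn, which are among the 11, and the share without them was not counted. A match is a description of letters and no evidence of binding. The shorter core GGAA was not counted, and a window with 0 matches can still hold it, as that of Kdr does. The Kdr window, at chr5:75978406-75978705 on the minus strand, had 0 matches, while those of Flt1 (chr5:147725962-147726261, minus), Tie1 (chr4:118489800-118490099, minus) and Emcn (chr3:137340828-137341127, plus) had 2 each.
Kdr: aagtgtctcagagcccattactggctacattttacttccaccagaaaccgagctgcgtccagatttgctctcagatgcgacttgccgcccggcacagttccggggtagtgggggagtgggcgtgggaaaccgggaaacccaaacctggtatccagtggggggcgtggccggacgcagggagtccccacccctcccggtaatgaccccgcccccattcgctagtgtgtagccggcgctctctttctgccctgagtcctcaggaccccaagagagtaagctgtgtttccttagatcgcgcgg
Flt1: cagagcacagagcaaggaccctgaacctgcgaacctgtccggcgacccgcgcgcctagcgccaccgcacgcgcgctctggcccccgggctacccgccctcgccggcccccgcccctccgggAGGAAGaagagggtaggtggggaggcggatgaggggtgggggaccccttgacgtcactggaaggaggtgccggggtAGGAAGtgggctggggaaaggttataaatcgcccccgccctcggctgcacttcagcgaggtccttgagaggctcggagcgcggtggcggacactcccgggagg
Tie1: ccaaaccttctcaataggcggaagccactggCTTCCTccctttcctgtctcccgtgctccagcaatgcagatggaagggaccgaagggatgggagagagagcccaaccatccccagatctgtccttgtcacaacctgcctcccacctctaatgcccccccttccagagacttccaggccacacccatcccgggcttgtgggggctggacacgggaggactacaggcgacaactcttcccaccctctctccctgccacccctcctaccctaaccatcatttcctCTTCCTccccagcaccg
Emcn: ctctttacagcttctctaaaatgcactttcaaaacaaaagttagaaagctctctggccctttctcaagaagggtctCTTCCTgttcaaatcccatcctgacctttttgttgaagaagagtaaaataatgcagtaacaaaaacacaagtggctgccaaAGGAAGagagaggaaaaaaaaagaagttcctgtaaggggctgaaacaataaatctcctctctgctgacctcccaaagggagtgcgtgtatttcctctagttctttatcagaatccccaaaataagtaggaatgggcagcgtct

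AD members were somewhat shallower than WT members. AD members held 230979 UMIs, with 575 to 13673 per cell and a median of 2435, and WT members 299775, with 508 to 18947 and a median of 3050. Lymphatic cells were deeper, with medians of 3136.5 UMIs in AD and 4899.5 in WT. The median mitochondrial share was 6.93% in AD members and 6.52% in WT members. No member's barcode was shared between the libraries, although 7 barcodes were.

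The rule chose the cells by the label's own markers, so their presence is no check of it. Among these, Plvap, the diaphragm protein of fenestrated capillaries, was sparse. It had 6 UMIs in 6 of the 74 AD cells and 19 UMIs in 10 of the 83 WT cells, and over all barcodes it had 30 UMIs in the AD and 42 UMIs in the WT library. Some genes that most cells use, among them B2m and the caveolar genes Cav1 and Cav2, are listed at 0 in every barcode of both libraries, as are 22 of the 488 genes on the described lists. A low or absent value of a single gene is therefore a property of these tables and is not read as absence from the cells.

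Near the edges of the rule, 5 AD and 4 WT members held exactly 3 of the 10 genes, and 21 AD and 7 WT kept barcodes with Pecam1 or Cdh5 held exactly 2 and stayed out. The median member held 6 of the 10 in AD and 7 in WT. Of the 81 AD and 85 WT kept barcodes with enough rule genes, 4 AD and 1 WT held Ptprc UMIs, and 4 AD and 1 WT had too high an epithelial share. The highest epithelial share of a member was 0.263% in AD and 0.214% in WT, and the lowest among those left out was 0.325% in AD and 0.324% in WT. No member held a single Spp1 UMI, so the limit on Spp1 left out no barcode. Of the AD members 53 held none of the lymphatic genes, 13 held 1, and 1, 3 and 4 cells held 2, 3 and 4. In WT these counts were 62, 13, 2, 1 and 5.

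Endothelial cells made up a smaller part of the AD library. They were 1.58% (74 of 4691, 1.24 to 1.98) of kept barcodes in AD and 5.36% (83 of 1550, 4.29 to 6.60) in WT by Clopper-Pearson intervals, a ratio of 0.295 (0.212 to 0.408). Among kept barcodes with no Ptprc and a low epithelial share, they were 4.21% (3.32 to 5.26) in AD and 15.3% (12.3 to 18.6) in WT. Per 100 barcodes with at least 3 fibroblast genes, which are the other stromal cells of the same digest, there were 10.8 endothelial cells in AD and 36.6 in WT. The ratio moved with the mitochondrial limit, to 0.427 at 50% and 0.497 with no limit. With no limit the kept barcodes numbered 6643 in AD and 4050 in WT, and the endothelial ones 75 in AD and 92 in WT. Within the endothelium the lymphatic share did not differ beyond counting error, at 10.8% (4.78 to 20.2) in AD and 9.64% (4.25 to 18.1) in WT, a ratio of 1.12 (0.367 to 3.43). Without cells holding stromal markers it was 8 of 54 cells in AD and 6 of 75 in WT, a ratio of 1.85, and after thinning to 1000 UMIs 3 of 52 in AD and 5 of 64 in WT, a ratio of 0.739. Whether the lower share came from the tissue, its digestion or the capture cannot be told apart with 1 library each.

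RNA of other cell types was also present, with more mural, fibroblast, epithelial and immunoglobulin RNA in AD members. Red cell genes went the other way, at 0.346 per 10000 UMIs in AD and 1.57 in WT. Of 12 pericyte and smooth muscle genes, the markers of the mural cells that wrap vessels, 10 had UMIs in AD members and 12 in WT members, with summed levels of 20.4 per 10000 UMIs in AD and 9.14 in WT. Single cells ranged from 0 to 228.6 in AD and from 0 to 130.9 in WT, with a median of 0 in both. Fibroblast genes, 9 of 11 with UMIs in each library, summed to 11.9 per 10000 UMIs in AD and 1.67 in WT, with Dpt at 0 in both and Pdgfra at 0 in AD. Per cell the fibroblast genes ranged from 0 to 258.8 in AD and from 0 to 23.1 in WT, with a median of 0 in both. At least 3 fibroblast or 3 pericyte markers were found in 27.0% of AD members (20 of 74, 17.4 to 38.6) and 9.64% of WT members (8 of 83, 4.25 to 18.1), a ratio of 2.80 (1.18 to 7.36). The immunoglobulin gene Igha was found in 100% of the 74 AD members and 39.8% of the 83 WT members, at 11210 CPM (UMIs per 1000000 UMIs) in AD and 176.8 CPM in WT. It was also in 99.7% of AD epithelial barcodes, which should lack it, and in 71.4% of WT ones, at median depths of 9847 UMIs in AD and 12948 UMIs in WT. One AD cell held 67.8% of the members' Igha UMIs. The summed epithelial genes stood at 11.3 per 10000 UMIs in AD and 5.74 in WT. Of 9 T cell and innate lymphoid genes 2 had UMIs in AD members, 2 UMIs in all, and 1 had UMIs in WT members, 4 in all, with Cd3d, Cd3e and Cd3g at 0 in both. Of 12 myeloid genes 4 had 7 UMIs together in AD members and 3 had 7 UMIs in WT members, with Lyz2, C1qa and C1qb at 0 in both. Of 6 glial genes 1 had 1 UMI in AD members and 0 had any in WT members, with Sox10 at 0 in both. The part of mural, fibroblast, epithelial and immunoglobulin RNA in the comparisons below was not tested, and values without the 28 cells that hold stromal markers (leaving 54 AD and 75 WT) are given for the main lists and for genes that those cells decide.

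**Figure D1:**
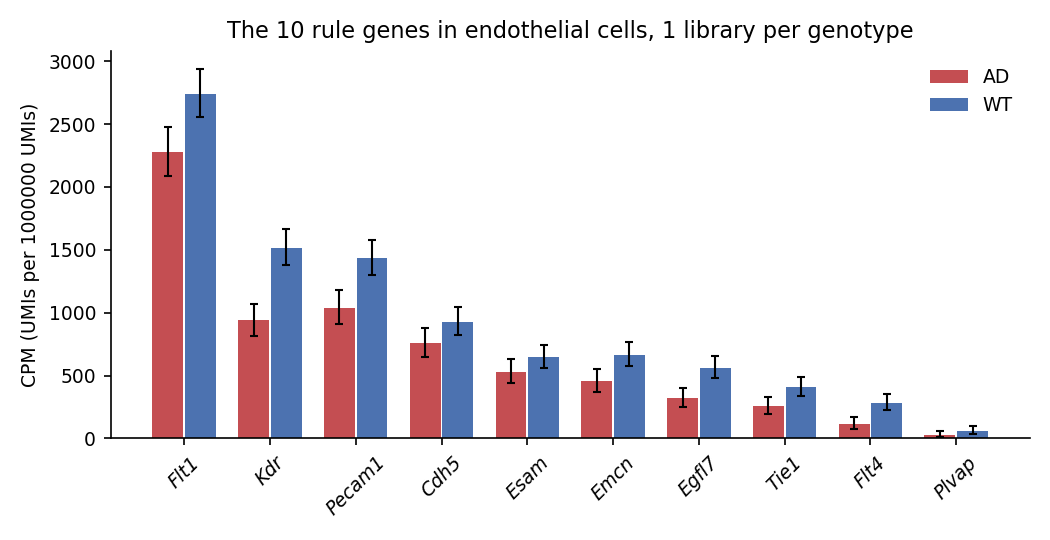
Levels of the 10 rule genes in summed endothelial cells, as CPM with exact Poisson intervals at 95% (counting error only), AD bars left of WT bars, 1 library per genotype. Pecam1 stands at 1039 CPM in AD and 1434 CPM in WT, and Plvap is near the floor in both.

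The receptors and junction proteins of the rule stood somewhat lower in AD. Pecam1, an adhesion molecule of endothelial contacts, had 240 UMIs in 69 AD cells and 430 UMIs in 79 WT cells, a log2 ratio of −0.46 (−0.70 to −0.23). Cdh5, the cadherin of endothelial adherens junctions, had 175 UMIs in AD and 278 in WT (−0.29, −0.57 to −0.01). Kdr, the main signalling receptor of VEGF, had 217 UMIs in 60 AD cells and 455 UMIs in 70 WT cells (−0.69, −0.93 to −0.46). Flt1, a decoy receptor for the same ligand, had 526 UMIs in AD and 822 in WT (−0.27, −0.43 to −0.11). These intervals leave 0 out, yet the rule counted these genes, so the ratios describe the chosen cells. The lymphangiogenic receptor Flt4 had 27 UMIs in 17 AD cells and 85 UMIs in 20 WT cells, and the secreted Egfl7 had 74 in AD and 168 in WT. The orphan receptor Tie1 had 59 UMIs in AD and 122 in WT, the sialomucin Emcn 105 in AD and 200 in WT, and the junction protein Esam 123 in AD and 194 in WT. At least 1.5-fold lower were 4 of the 9 rule genes measured, 0 were higher, and the median was −0.55. Over all measured genes 13.5% were that much lower and 12.3% higher, around a median of −0.03. Relative to the AD over WT ratio of the other kept barcodes the median of the rule genes was 0.52. The rule keeps members out of those barcodes, and they hold few UMIs of some rule genes, such as Kdr with 26 in AD and 33 in WT. The value 0.52 therefore cannot settle the direction.

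Of the 1322 genes with at least 30 member UMIs in each library, 288 (21.8%) stood at least 4-fold above the other kept barcodes in both libraries, and the 15 with the highest smaller fold are a compact description of these cells. Cytl1, a small secreted cytokine-like protein, stood 3050-fold above other kept barcodes in AD and 731-fold in WT, though it came from 8 AD and 6 WT cells. Kdr stood 1128-fold above in AD and 547.9-fold in WT, and Cdh5 567.3-fold in AD and 477.5-fold in WT. The other named genes were the guidance receptor Robo4, Cyyr1, the adhesion receptor Adgrl4, the fatty acid binding protein Fabp4, the phosphatase Ptprb that acts on the angiopoietin receptor, Myct1, Flt1, Emcn, the sialomucin Podxl, Tie1, the secretoglobin Scgb3a1 and the exocyst relative Exoc3l2. Their smaller folds ran down to 243.4, that of Exoc3l2 in WT. The rule fixed the enrichment of Kdr, Cdh5, Flt1, Emcn and Tie1.
The ETS factor Erg, which was no part of the rule, had 44 UMIs in 25 AD cells and 74 UMIs in 40 WT cells and stood 86.7-fold above other kept barcodes in AD and 133.4-fold in WT. Fli1, another ETS factor that leukocytes also use, stood 4.01-fold above in AD and 7.32-fold in WT.

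Between the libraries, 3431 genes had at least 30 UMIs in at least 10 members. Of these 128 (3.73%) were at least 2-fold higher in AD endothelial cells and 135 (3.93%) at least 2-fold lower, around a median log2 ratio of −0.03. Counting intervals left out a ratio of 1 for 122 of the higher and 123 of the lower genes. In 11 of the higher genes 1 AD cell held at least 50% of the AD UMIs, and in 3 of the lower genes 1 WT cell held as much of the WT UMIs. Without the cells that hold stromal markers, 102 (3.94%) of 2589 genes were higher and 120 (4.63%) lower. In members that are not lymphatic, 124 (4.34%) of 2860 were higher and 109 (3.81%) lower. Over all members, 36 of the 128 higher and 60 of the 135 lower genes stood at least 4-fold above other kept barcodes in the library where they were higher. The share of all measured genes that passes this filter was not counted, so these counts are no result about the called genes.

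Among the genes at least 4-fold above other kept barcodes in AD, the highest was Cyp26b1, which degrades retinoic acid. Cyp26b1 had 32 UMIs in 9 AD cells and 2 UMIs in 2 WT cells, a log2 ratio of 4.08 (2.41 to 7.48), while in the other kept barcodes the ratio was 1.56. Several others in this group belong to mural cells. Pdgfrb, the receptor through which pericytes are recruited, had 43 UMIs in 14 AD cells and 14 UMIs in 5 WT cells (1.96, other kept −0.12). Rgs5, a regulator of G protein signalling and a pericyte marker, had 305 UMIs in 18 AD cells and 133 UMIs in 13 WT cells (1.57, other kept −1.13), with 35.7% of the AD UMIs in 1 cell. Both are on the pericyte list whose summed level was 20.4 per 10000 UMIs in AD members and 9.14 in WT members. Fbln5, which helps assemble elastic fibres, had 44 UMIs in AD and 17 in WT (1.72, other kept 0.14). The rest were Rprd2 (1.92), the reticulon Rtn2 (1.80), Gm13889 (1.76), Rgs7bp (1.74), the diacylglycerol kinase Dgkb (1.58) and Rasl11a (1.58). For these 6 the other kept barcodes stood between −0.21 and 0.37. As the filter used the AD library alone here, some were little enriched in WT. Rprd2 stood 4.81-fold above other kept barcodes in AD and 1.25-fold in WT, while Cyp26b1 stood 105.1-fold above in AD and 18.3-fold in WT. The cells with stromal markers decided much of this group. Without them Pdgfrb had 1 UMI in AD and 0 in WT, Rgs5 8 UMIs in AD and 17 in WT, Dgkb 2 in AD and 1 in WT, and Rasl11a 7 in AD and 6 in WT. Cyp26b1 (22 UMIs in 5 AD cells and 2 UMIs in 2 WT cells), Rprd2 (2.05) and Fbln5 (2.12) stood about as high without them.

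Of the genes at least 4-fold above other kept barcodes in WT, the lowest in AD were Nqo1 and Stab1. Each had 4 UMIs in AD and 26 in WT (−2.18, −4.30 to −0.80). As the filter used the WT library alone here, some were little enriched in AD. Nqo1 stood 1.31-fold above other kept barcodes in AD and 4.67-fold in WT, and Car4 1.80-fold in AD and 4.14-fold in WT. Gpihbp1 stood 522.1-fold above in AD and 201.5-fold in WT. Nqo1 is a quinone reductase of the oxidative stress response, found in 4 AD and 11 WT cells, and Stab1 is a scavenger receptor, found in 2 AD and 15 WT cells. Their ratios in other kept barcodes were −0.35 for Nqo1 and −0.63 for Stab1. Car4, a carbonic anhydrase on the surface of capillary endothelium, had 15 UMIs in 9 AD cells and 83 UMIs in 24 WT cells (−2.05, −2.99 to −1.29, other kept −0.85). Gpihbp1, which carries lipoprotein lipase to the capillary lumen, had 9 UMIs in 6 AD cells and 42 UMIs in 14 WT cells (−1.78, other kept −3.16). Relative to the other kept barcodes the ratio of Gpihbp1 was 1.37. Those barcodes held 2 Gpihbp1 UMIs in AD and 8 in WT, so this ratio and the folds of Gpihbp1 above them rest on few counts. The bradykinin receptor Bdkrb2 had 6 UMIs in 5 AD cells and 29 UMIs in 24 WT cells (−1.81, other kept −0.29). Ch25h, which makes an oxysterol, also had 6 UMIs in AD and 29 in WT (−1.81, other kept −0.71). Tmem252 (−1.92, other kept −1.87), the engulfment adaptor Gulp1 (−1.73), Fam174b (−1.68) and the membrane glycoprotein Gpm6a (−1.64) completed the group. Without cells holding stromal markers the 10 lowest genes ran from −2.13 for Car4 to −1.10 for Gpihbp1.
Over all measured genes without markers of other cell types, Sass6, a centriole assembly gene, had 28 UMIs in 24 AD cells and 2 UMIs in 1 WT cell (3.89), and it stood at 3.65 in the other kept barcodes too. Cd74, the invariant chain of MHC class II, had 39 UMIs in AD and 3 in WT (3.87, other kept 0.48), with 69.2% of the AD UMIs in 1 cell. The goblet cell product Retnlb had 33 UMIs in AD and 3 in WT (3.64, other kept 0.85), with 54.6% of the AD UMIs in 1 cell. The actin-severing gene Gsn had 120 UMIs in 23 AD cells and 14 UMIs in 11 WT cells (3.43, other kept 0.25), with 37.5% of the AD UMIs in 1 cell. At a mitochondrial limit of 10% Gsn had 22 UMIs in AD and 13 in WT (1.10), and without cells holding stromal markers 14 in AD and 6 in WT. The survival gene Bcl2 had 5 UMIs in 3 AD cells and 31 in 20 WT cells (−2.14, other kept −0.56), and the acute phase gene Saa1 5 UMIs in AD and 29 in WT (−2.05, other kept −0.89).

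Genes of exchange in capillaries stood lower in AD as a list. Of 13 measured capillary genes, 10 were at least 1.5-fold lower and 0 higher, with a median log2 ratio of −0.85, where 13.5% of all measured genes were that much lower and 12.3% higher around a median of −0.03. Without the cells holding stromal markers 9 were lower and the median was −0.75, where 15.7% of the genes then measured were lower and 13.1% higher. The list holds the rule gene Kdr, and without it 9 of 12 were lower and the median was −0.89. Ly6c1, a surface protein of small vessels, had 433 UMIs in 59 AD cells and 983 UMIs in 68 WT cells (−0.81, −0.97 to −0.64). Cxcl12, the chemokine that retains leukocytes and progenitors, had 302 UMIs in AD and 707 in WT (−0.85, −1.05 to −0.65), while the other kept barcodes stood at 0.19. Cd300lg, a receptor of capillary and venular endothelium, had 31 UMIs in 21 AD cells and 95 UMIs in 46 WT cells (−1.22, −1.87 to −0.64). The matricellular Sparcl1 had 202 UMIs in AD and 498 in WT (−0.92). Fabp5 had 31 UMIs in AD and 99 in WT (−1.28) and Fabp4 887 in AD and 1560 in WT (−0.44), both being fatty acid binding proteins. Cd36, the fatty acid transporter of capillaries, did not share this, with 177 UMIs in AD and 208 in WT (0.14, −0.15 to 0.44). The water channel Aqp1 had 76 UMIs in 13 AD cells and 251 UMIs in 17 WT cells (−1.34), but its ratio was 0.51 without the cells holding stromal markers.

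Arterial genes ran the other way. Of 16 measured, 6 were at least 1.5-fold higher in AD and 1 lower, with a median of 0.28. Over all measured genes 12.3% were that much higher and 13.5% lower. Without the cells holding stromal markers 8 of 13 arterial genes were higher, 0 lower, and the median was 0.71. Of the genes then measured 13.1% were higher and 15.7% lower. Gja4, a gap junction protein of arterial endothelium, had 37 UMIs in 22 AD cells and 18 UMIs in 13 WT cells (1.40, 0.57 to 2.32, other kept −1.71). The Notch ligand Jag1 had 35 UMIs in 20 AD cells and 17 UMIs in 11 WT cells (1.40, 0.54 to 2.35, other kept −0.54). The secreted semaphorin Sema3g had 45 UMIs in 24 AD cells and 25 UMIs in 12 WT cells (1.21, 0.49 to 1.99). Sox17, a transcription factor of arterial identity, had 39 UMIs in 25 AD cells and 26 UMIs in 19 WT cells (0.95, 0.21 to 1.74). Mgp, an inhibitor of vessel calcification that fibroblasts also make, had 64 UMIs in 16 AD cells and 28 UMIs in 4 WT cells (1.55), or 41 UMIs in AD and 7 in WT (3.18) without cells holding stromal markers. Others were flat within counting error, such as the ligand gene Efnb2 with 35 UMIs in AD and 49 in WT (−0.10, −0.78 to 0.55) and Hey1, a Notch target, with 24 UMIs in AD and 27 in WT (0.21, −0.65 to 1.05). Alox12 had 9 UMIs in AD and 21 in WT (−0.80, −2.16 to 0.34).

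**Figure D2:**
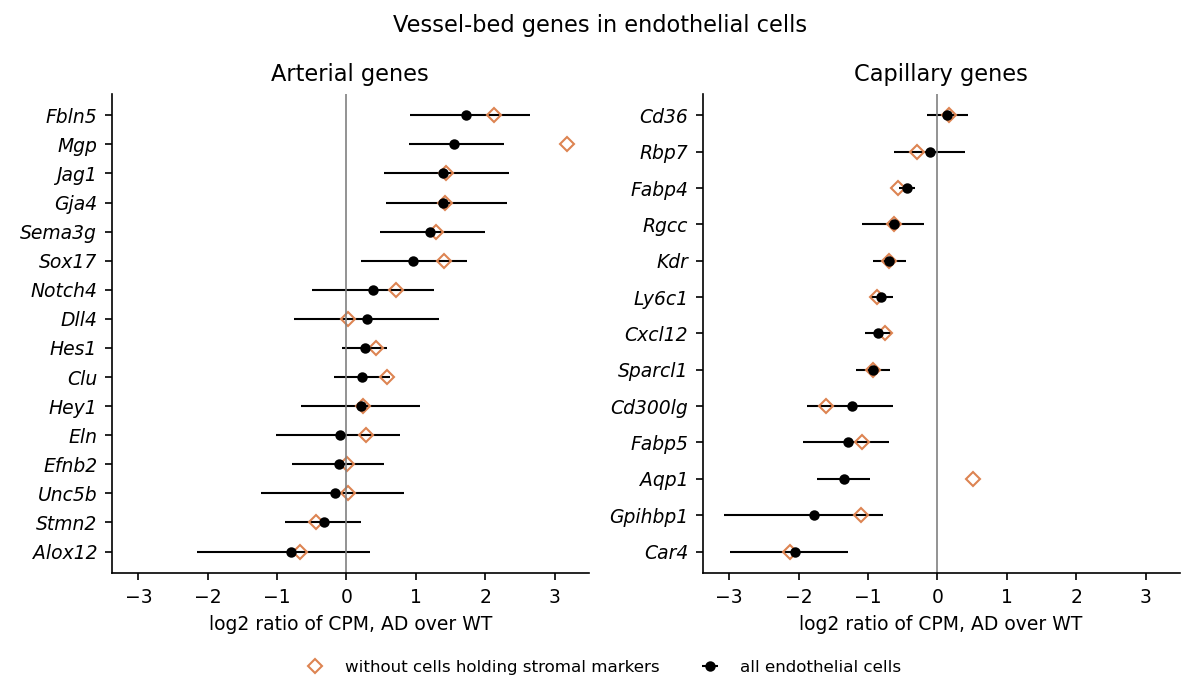
Log2 ratio of CPM, AD over WT, for the measured arterial genes (left) and capillary genes (right). Black points are all endothelial cells with 95% counting intervals, open diamonds the same without cells that hold stromal markers. Among the capillary genes 10 of 13 are at least 1.5-fold lower, and among the arterial genes 6 of 16 are at least 1.5-fold higher. Over all measured genes 13.5% are that much lower and 12.3% higher. Aqp1 changes side.

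The same contrast was present in the level per cell among members that are not lymphatic. The 18 capillary genes that are no rule genes summed to 112.7 UMIs per 10000 (108.0 to 117.4) in AD and 177.8 (172.5 to 183.1) in WT, with cell medians of 99.1 in AD and 148.6 in WT. All 66 AD cells and all 75 WT cells had some capillary UMIs, and 10 WT cells stood above the highest AD cell while the ranges otherwise overlapped. The 20 arterial genes summed to 32.9 UMIs per 10000 (30.4 to 35.5) in AD and 21.8 (20.0 to 23.8) in WT, with cell medians of 30.8 in AD and 18.8 in WT. On the arterial scale 9 of 66 AD cells stood above the highest WT cell, at 67.4. The 20 venous genes stood at 29.7 per 10000 (27.4 to 32.2) in AD and 35.1 (32.8 to 37.5) in WT, with medians of 23.7 in AD and 25.9 in WT.
After thinning each cell to 1000 UMIs, which dropped 6 AD and 7 WT cells, at least 2 arterial genes were found in a median of 69.2% of 60 AD cells and 51.5% of 68 WT cells over 20 draws. The draws ran from 63.3% to 76.7% in AD and from 45.6% to 60.3% in WT, and since they thin the same cells over again, these ranges cover thinning noise and not a difference between libraries. Without thinning the shares were 87.9% in AD and 77.3% in WT. Thinned leukocytes reached 2.59% in AD and 5.15% in WT, at median depths before thinning of 2602 UMIs in AD and 3092 UMIs in WT. These shares are no background rate, since the list holds Cxcr4, which leukocytes also use. Thinned fibroblast-marker barcodes reached 56.3% in AD and 45.8% in WT, so several list genes are not restricted to arteries. At least 2 capillary genes were found in 90.8% of thinned AD cells and 97.1% of thinned WT cells, and at least 2 venous genes in 57.5% of AD and 55.9% of WT cells.

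**Figure D3:**
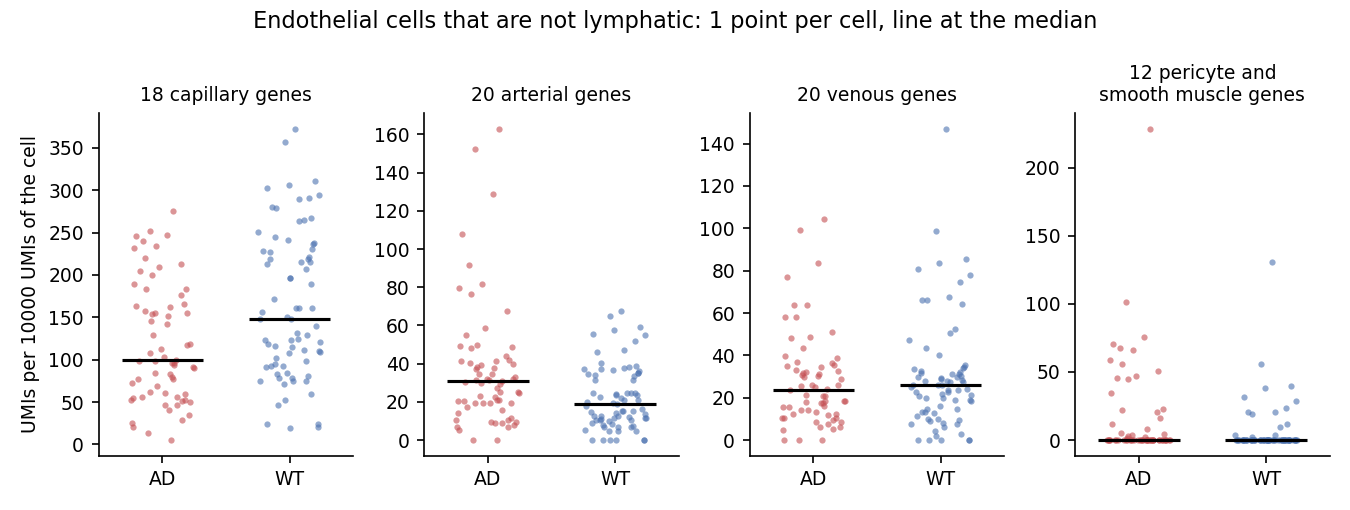
UMIs of 4 gene lists per 10000 UMIs of each endothelial cell that is not lymphatic, 66 AD cells left of 75 WT cells in each panel, with each panel on its own vertical scale; lines mark medians. Arterial medians are 30.8 in AD and 18.8 in WT, capillary medians 99.1 in AD and 148.6 in WT, and the pericyte panel shows that few cells carry most mural UMIs.

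Venous and venular genes were mixed. Of 13 measured, 5 were at least 1.5-fold lower in AD and 0 higher, with a median of −0.40. Over all measured genes 13.5% were that much lower and 12.3% higher. Without cells holding stromal markers 4 of 12 were lower and 1 higher, with a median of −0.16. Of the genes then measured 15.7% were lower and 13.1% higher. Without lymphatic cells 3 of 13 were lower and 2 higher, with a median of −0.19. There 14.5% of the genes measured were lower and 12.4% higher. With both groups left out the venous median was 0.13, the highest of 21 alternatives. Ctla2a, a protease inhibitor, had 77 UMIs in 30 AD cells and 219 UMIs in 47 WT cells (−1.13, −1.53 to −0.75). Vwf, the adhesive protein of Weibel-Palade bodies, had 40 UMIs in 23 AD cells and 98 UMIs in 24 WT cells (−0.91), against 0.32 without the cells holding stromal markers. The interleukin 1 receptor Il1r1 had 12 UMIs in AD and 35 in WT (−1.13), and the apelin receptor Aplnr 17 in AD and 37 in WT (−0.72, −1.67 to 0.12). The venous transcription factor Nr2f2 had 77 UMIs in AD and 76 in WT (0.39, −0.08 to 0.87). Below the level needed to be measured, the leukocyte adhesion receptor Vcam1 had 0 UMIs in AD and 23 UMIs in 5 WT cells, at least 5.91-fold lower against a floor of 3 counts over the AD members. Of the WT UMIs 4 were in 4 cells without stromal markers, and no bound is given for those. Cells that are not lymphatic likewise held 4 UMIs in 4 WT cells. The bound thus rests on a single WT cell that holds stromal markers and was set apart as lymphatic. The selectin Selp had 17 UMIs in 6 AD cells and 5 UMIs in 2 WT cells.

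A few cells carried the venular chemokine receptor Ackr1, a description of cells chosen after their values were seen. At least 2 Ackr1 UMIs were found in 5 of 66 AD cells (7.58%, 2.51 to 16.8) and 6 of 75 WT cells (8.0%, 2.99 to 16.6) that are not lymphatic. In both libraries these cells held most UMIs of Madcam1, the adhesion molecule by which lymphocytes enter the gut wall, with 17 in the AD and 21 in the WT cells against 1 UMI in AD and 3 in WT cells with no Ackr1. Cytl1 had 39 UMIs in the 5 AD cells and 59 in the 6 WT cells, against 13 in AD and 1 in WT cells with no Ackr1. Lrg1, which modulates TGF beta signalling in vessels, had 29 UMIs in the AD and 16 in the WT cells, against 0 in AD and 10 in WT cells with no Ackr1. Kdr was sparse in them, at 113.2 CPM in AD and 255.8 CPM in WT, where cells with no Ackr1 had 1099 CPM in AD and 1945 CPM in WT.

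Cells with Rgs5 had a higher share in AD, with overlapping intervals, by a threshold likewise set after the values were seen. The count leaves out lymphatic cells. Rgs5 had 133 UMIs over all WT members and 77 in those not lymphatic, while in AD both sums were 305. At least 2 Rgs5 UMIs were found in 17 of 66 AD cells (25.8%, 15.8 to 38.01) and 10 of 75 WT cells (13.3%, 6.58 to 23.2). They also held the mural genes Abcc9, with 25 UMIs in AD and 13 in WT, Pdgfrb, with 41 in AD and 8 in WT, Myh11, with 27 in AD and 19 in WT, and Acta2, with 17 in AD and 42 in WT. Endothelial genes were present in them as well, with Pecam1 at 844.7 CPM in AD and 1248 CPM in WT and Flt1 at 1994 CPM in AD and 2417 CPM in WT. Their median depth was 4080 UMIs in AD and 3726 UMIs in WT, where cells with no Rgs5 had 2008.5 in AD and 2532.5 in WT. No doublet caller was applied to these barcodes, and the part of doublets was not tested.

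Signalling receptors of vessels were mostly lower in AD or flat. Among VEGF ligands and receptors 3 of 6 measured were at least 1.5-fold lower and 0 higher, with a median of −0.56 that was 0.18 relative to other kept barcodes. As 3 of the 6 are rule genes (Kdr, Flt1 and Flt4), this count and both medians describe the chosen cells, and of the other 3 Nrp1 was lower. The semaphorin and VEGF coreceptor Nrp1 had 125 UMIs in 41 AD cells and 281 UMIs in 57 WT cells (−0.79, −1.11 to −0.48, other kept −0.01). Of 14 measured genes of TGF beta and BMP signalling, 5 were lower and 0 higher, with a median of −0.35, where 13.5% of all measured genes were lower and 12.3% higher. Without cells holding stromal markers 4 of 13 were lower and 0 higher. Acvrl1, the type I receptor mutated in hereditary haemorrhagic telangiectasia, had 47 UMIs in AD and 101 in WT (−0.72, −1.26 to −0.21), and its partner Eng 134 in AD and 268 in WT (−0.62, −0.93 to −0.32). The ligand Tgfb1 had 20 UMIs in AD and 46 in WT (−0.81). Id1, a target of BMP signalling, had 94 UMIs in AD and 90 in WT (0.44, 0.01 to 0.87). In the Notch list 3 of 9 measured were higher and 0 lower with a median of 0.32, led by the ligands Jag2, with 23 UMIs in AD and 10 in WT (1.54, 0.45 to 2.81), and Jag1 (1.40). Without cells holding stromal markers 2 of 7 were higher. The Notch median was −0.17 when 2 of the rule genes were enough to be a member. The receptors Notch1 (0.32, −0.53 to 1.17) and Notch4 (0.38, −0.50 to 1.26) were within counting error of no difference.

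Basement membrane genes were lower in AD as a list, with 5 of 13 measured at least 1.5-fold lower, 0 higher and a median of −0.47. Of all measured genes 13.5% were that much lower and 12.3% higher. Igfbp7, a secreted protein of vessel walls, had 692 UMIs in 65 AD cells and 1821 UMIs in 75 WT cells (−1.02, −1.15 to −0.89, other kept −0.41). Hspg2, which encodes perlecan, had 83 UMIs in AD and 184 in WT (−0.77, −1.16 to −0.39). The collagen IV chain Col4a2 had 163 UMIs in AD and 312 in WT (−0.56, −0.84 to −0.28), and the linker Nid1 19 in AD and 48 in WT (−0.94). Without the cells holding stromal markers, 7 of 12 were lower and the median was −0.69, where 15.7% of the genes then measured were lower.

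Of 13 measured transport genes 6 were at least 1.5-fold lower and 2 higher, with a median of −0.25. Over all measured genes 13.5% were that much lower and 12.3% higher. Without cells holding stromal markers 2 of 12 were lower and 0 higher, where 15.7% of all genes then measured were lower. The prostaglandin transporter Slco2a1 had 190 UMIs in 42 AD cells and 376 UMIs in 54 WT cells (−0.61, −0.87 to −0.35). The organic anion transporter Slco2b1 had 20 UMIs in AD and 50 in WT (−0.92), and the zinc transporter Slc39a10 12 in AD and 33 in WT (−1.05). The taurine transporter Slc6a6 had 134 UMIs in AD and 109 in WT (0.67, 0.30 to 1.05). The efflux pump Abcg2, of the barrier list, had 18 UMIs in 17 AD cells and 54 UMIs in 37 WT cells (−1.18, −2.07 to −0.42). That list was otherwise near the rest, with 2 of 16 measured higher, 2 lower and a median of −0.21. The claudin of endothelial tight junctions, Cldn5, had 44 UMIs in AD and 53 in WT (0.11, −0.50 to 0.71).

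Several immediate early genes, which respond to handling and dissociation as well as to signals in tissue, stood higher in AD. Of 20 measured genes of the immediate early and dissociation list, 9 were at least 1.5-fold higher and 0 lower, with a median of 0.57. Over all measured genes 12.3% were that much higher and 13.5% lower. Without the cells holding stromal markers 12 were higher, where 13.1% of the genes then measured were higher. Fos had 1011 UMIs in 72 AD cells and 843 UMIs in 71 WT cells (0.64, 0.51 to 0.77), while the other kept barcodes stood at 0.17. The chaperone gene Hspa1a had 353 UMIs in AD and 224 in WT (1.03, 0.79 to 1.28, other kept −0.21). The other heat shock genes were below 1.5-fold, namely Hspa1b (0.57, 0.36 to 0.79), Hsp90aa1 (0.29), Hspb1 (0.05) and Dnajb1 (−0.09). The nuclear receptor Nr4a1 had 118 UMIs in AD and 81 in WT (0.92, 0.50 to 1.35, other kept −0.04), and Atf3 108 UMIs in 41 AD cells and 82 UMIs in 20 WT cells (0.77, 0.35 to 1.21). Of the flow-responsive list 1 of 10 was higher and 2 were lower. Klf2, the factor induced by laminar flow, had 332 UMIs in AD and 316 in WT (0.45, 0.22 to 0.67, other kept 0.78), and Klf6 100 in AD and 58 in WT (1.16, other kept 0.63).

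Inflammatory and interferon genes were mixed. In the interferon list 4 of 14 were at least 1.5-fold higher, 3 lower, and the median was −0.14. Over all measured genes 12.3% were that much higher and 13.5% lower. Ifitm2, an antiviral membrane protein, had 140 UMIs in AD and 420 in WT (−1.20, −1.50 to −0.93, other kept −0.93), and the surface protein Ly6a 446 in AD and 1073 in WT (−0.89, −1.05 to −0.73, other kept −0.87). Ifitm1 had 65 UMIs in 14 AD cells and 41 UMIs in 9 WT cells (1.04). Without the cells holding stromal markers 1 Ifitm1 UMI was left in AD and 5 in WT, too few for a ratio. In the NF-kB list 1 of 12 was higher and 4 lower, but in members that are not lymphatic 4 of 10 were higher and 1 lower, and without cells holding stromal markers 3 of 9 were higher and 3 lower. Icam1, a leukocyte adhesion receptor, had 21 UMIs in 9 AD cells and 42 UMIs in 17 WT cells (−0.61, −1.45 to 0.16). Madcam1 over all members had 23 UMIs in AD and 25 in WT (0.26, −0.63 to 1.13), and Ackr1 40 in AD and 69 in WT (−0.40, −1.01 to 0.17). Antigen presentation genes of class I were near equal, with H2-K1 at 362 UMIs in AD and 546 in WT (−0.22, −0.41 to −0.02) and H2-D1 at 299 in AD and 397 in WT (−0.03).

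Genes that act on amyloid were close to the rest of the measured genes, with 2 of 16 at least 1.5-fold higher, 1 lower and a median of 0.03. Over all measured genes 12.3% were that much higher and 13.5% lower. Without cells holding stromal markers 2 of 13 were higher and 2 lower. The mouse gene App had 177 UMIs in 60 AD cells and 274 UMIs in 69 WT cells (−0.25, −0.54 to 0.02). The human transgenes were not analysed here. Itm2b, an integral membrane protein that binds the precursor, had 523 UMIs in AD and 987 in WT (−0.54, −0.70 to −0.39, other kept 0.12). Cst3, a secreted protease inhibitor that binds amyloid beta, had 509 UMIs in AD and 618 in WT (0.10, −0.08 to 0.27). Clu, an extracellular chaperone, had 100 UMIs in AD and 111 in WT (0.23, −0.18 to 0.63), while the other kept barcodes stood at 1.32.

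Other lists held both directions or few measured genes, and their counts are to be read against the 12.3% of all measured genes that were at least 1.5-fold higher and the 13.5% that were lower. Among further endothelial identity genes 4 of 29 were at least 1.5-fold higher in AD and 6 lower, with a median of −0.27 that was 0.00 without the cells holding stromal markers. Sox7, an endothelial transcription factor, had 39 UMIs in AD and 25 in WT (1.01, 0.26 to 1.80), and Adgrl4 had 74 UMIs in 37 AD cells and 196 UMIs in 58 WT cells (−1.02, −1.44 to −0.64), or 0.37 relative to other kept barcodes. In the sprouting list 3 of 8 were lower and 0 higher, among them Nid1, and the growth factor gene Pdgfb, by which sprouts recruit pericytes, had 36 UMIs in AD and 70 in WT (−0.57, −1.21 to 0.02). Of the angiopoietin list 1 of 3 was lower, the rule gene Tie1, and the receptor gene Tek had 80 UMIs in AD and 145 in WT (−0.48, −0.89 to −0.08). Of leukocyte adhesion genes 1 of 9 was lower and 0 higher, of vessel chemokines 1 of 3 was lower, and of caveolar genes 1 of 7 was higher, Cavin1 with 173 UMIs in AD and 143 in WT (0.65, 0.32 to 0.98). In fatty acid and lipoprotein handling 3 of 7 were lower and 1 higher. Among the lower ones, the scavenger receptor Scarb1 had 41 UMIs in AD and 91 in WT (−0.76, −1.34 to −0.23).
In the Wnt list 2 of 5 were higher, the receptor Fzd4 (0.69, −0.06 to 1.47) and Sox17. In the angiocrine list 1 of 8 was higher and 3 lower, with the endothelin gene Edn1 at 27 UMIs in AD and 54 in WT (−0.61, −1.35 to 0.07). In coagulation and fibrinolysis 1 of 10 was higher, the plasminogen activator Plat (0.71, −0.01 to 1.46), and 2 lower, Vwf among them. Of antigen presentation genes 1 of 7 was higher, Cd74, and 0 lower. In cell division 1 of 3 was higher, Hmgb2 with 29 UMIs in AD and 22 in WT (0.77, −0.08 to 1.64), of which 1 AD cell held 44.8%. In hypoxia and glycolysis 0 of 11 were higher and 2 lower, with the hypoxia factor Epas1 even at 350 UMIs in AD and 463 in WT (−0.03, −0.23 to 0.18). In the sphingolipid list 1 of 5 was higher and 1 lower, and the lower one was the lipid phosphatase gene Plpp3 with 229 UMIs in AD and 511 in WT (−0.78, −1.01 to −0.55).

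Most lymphatic cells stood far above the other members in lymphatic genes that the rule did not use. These 30 genes summed to between 79.9 and 285.3 UMIs per 10000 in the 7 AD cells with 3 or 4 lymphatic rule genes and to between 181.3 and 237.3 in the 6 such WT cells. The AD cell with 2 lymphatic rule genes had 25.1 per 10000, and the 2 such WT cells had 13.6 and 24.9, within the range of the other members, which reached 33.6 in AD and 46.8 in WT. Those 2 WT cells also hold stromal markers and 23295 of the 56094 WT lymphatic UMIs. With 8 cells each, the rule genes Lyve1, Prox1, Reln and Flt4 define them and are a description. Mmrn1, a secreted multimerin of lymphatic vessels that the rule did not use, had 136 UMIs in 7 of 8 AD lymphatic cells and 0 UMIs in the 66 other AD cells. In WT Mmrn1 had 295 UMIs in 6 lymphatic cells and 1 UMI in the 75 others. Against a floor of 3 counts over the other AD cells this is at least 274.3-fold higher in AD. The semaphorin Sema3d had 41 UMIs in AD and 18 in WT lymphatic cells and 0 in all other members, at least 82.7-fold higher in AD and at least 26.1-fold in WT. Lcn2, an iron carrier protein, had 12 UMIs in AD and 24 in WT lymphatic cells and 0 in other members, at least 24.2-fold higher in AD and 34.8-fold in WT. The ferroxidase Cp had 26 UMIs in AD lymphatic cells and 2 in AD other members, and 35 UMIs in WT lymphatic cells and 1 in WT others. Maf, a transcription factor of lymphatic vessels, had 22 UMIs in AD lymphatic cells and 5 in AD others, and 52 UMIs in WT lymphatic cells and 2 in WT others. The guidance factor Ntn1 had 26 UMIs in AD lymphatic cells and 6 in AD others (4.63, 3.4 to 6.28), and 45 UMIs in WT lymphatic cells and 4 in WT others (5.46).
Nts, which encodes neurotensin and was found in fewer than 10 cells, had 38 UMIs in 6 of the 8 AD and 10 UMIs in 3 of the 8 WT lymphatic cells and 0 elsewhere among members.

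The genes lowest in lymphatic cells were led by Cytl1 and the coreceptor Nrp1. Nrp1 had 1 UMI in AD lymphatic cells and 124 UMIs in 40 AD others, and 2 UMIs in WT lymphatic cells and 279 UMIs in 55 WT others, log2 ratios of −3.78 in AD and −4.69 in WT. The lymphatic cells with at least 3 lymphatic rule genes had 0 Nrp1 UMIs in both libraries. Cytl1 had 0 UMIs in lymphatic cells of both libraries and 55 in AD and 63 in WT others, at least 3.03-fold lower in AD and 4.83-fold lower in WT. These UMIs came from 8 of the 66 other AD cells and 6 of the 75 other WT cells, so most other members held no Cytl1 either. Plscr2, a scramblase relative, had 0 in lymphatic cells and 29 in AD and 64 in WT others, and Mcf2l, a guanine nucleotide exchange factor, 0 in lymphatic cells and 27 in AD and 65 in WT others. The exchange factor Rapgef4, Exoc3l2, Nav2, Bach2, Kctd12b and Gcnt2 followed. Over all measured genes 168 (4.90%) were at least 2-fold higher in lymphatic cells in both libraries and 238 (6.94%) at least 2-fold lower.

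**Figure D4:**
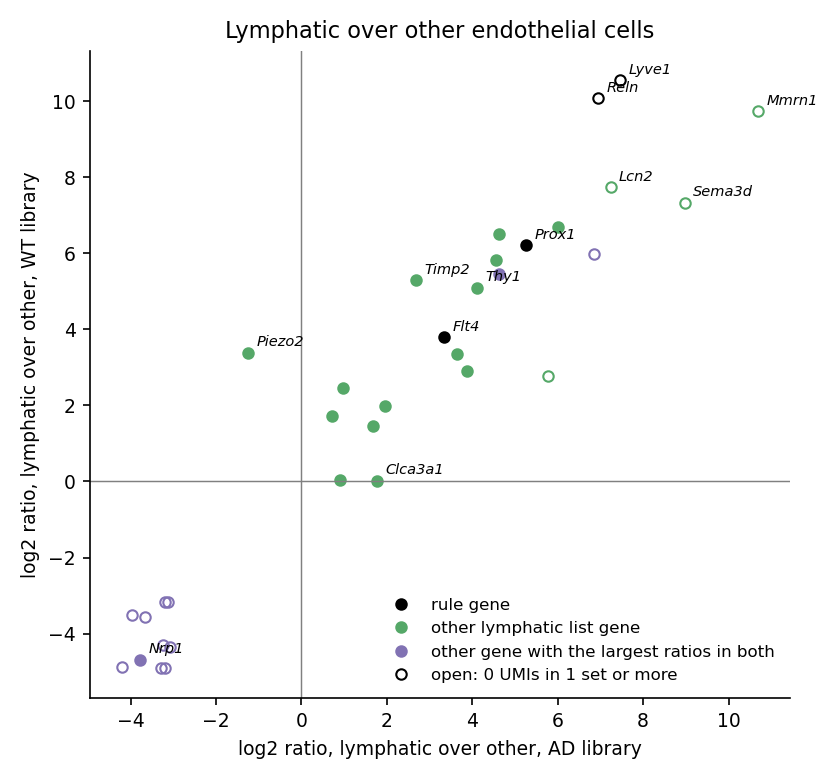
Log2 ratio of lymphatic over other endothelial cells in the AD library (horizontal) and the WT library (vertical), with 0.5 counts added, for the lymphatic list and the genes with the largest ratios in both. Open points have 0 UMIs in at least 1 set, so their position depends on the count added; Piezo2 is the single gene on opposite sides of 0.

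Between AD and WT, several lymphatic genes summed over all members were lower. The 4 lymphatic rule genes were each at least 1.5-fold lower, Reln with 31 UMIs in AD and 123 in WT (−1.59, −2.23 to −1.03), Lyve1 with 74 in AD and 172 in WT (−0.84), Prox1 with 10 in AD and 26 in WT (−0.96, −2.22 to 0.10) and Flt4 at −1.26. Of 18 other lymphatic genes measured, 1 was higher and 7 lower, with a median of −0.32. Over all measured genes 12.3% were higher and 13.5% lower. Without cells holding stromal markers 4 of 17 lymphatic genes were higher and 3 lower, with a median of −0.26. Mmrn1 had 136 UMIs in AD and 296 in WT (−0.74), while Sema3d had 41 UMIs in 5 AD cells and 18 UMIs in 5 WT cells (1.54, 0.73 to 2.45). Lymphatic cells held 32760 of 230979 member UMIs in AD and 56094 of 299775 in WT. Those with 3 or 4 lymphatic rule genes held 29577 UMIs in AD and 32799 in WT. How far the number and depth of lymphatic cells enter these sums was not tested.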

How the data were processed

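The authors deposited UMI counts per gene and barcode for 2 mouse colon libraries as whole numbers, with Cell Ranger 3.0.1, STAR, Seurat 3.0.2 and the mm10 build named per the submitters' processing notes. The filter on barcodes before deposit is not given in the sources used here. The members and gene lists were chosen with earlier results of these data known. UMIs were summed over member cells per library and given as CPM. Log2 ratios are of AD over WT, or lymphatic over other, with 0.5 counts added to each sum and scaling to the library's member total. A gene was measured with at least 30 UMIs over both libraries in at least 10 member cells. It was called at 2-fold, and in the 31 gene lists at 1.5-fold.

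Shares carry Clopper-Pearson intervals, sums exact Poisson intervals, and ratios exact intervals conditional on the total count, all at 95%. UMIs of 1 cell are not independent, so these cover counting error only. A gene at 0 in a set is given as a bound against 3 counts over that set. Cells were thinned to 1000 UMIs in 20 draws. Fibroblast-marker barcodes held at least 3 of Col1a1, Col1a2, Col3a1, Dcn, Lum, Pdgfra and Dpt, no Ptprc, a low epithelial share and neither Pecam1 nor Cdh5. Epithelial barcodes held at least 1% of the summed epithelial genes and leukocytes at least 1 Ptprc UMI. No clustering and no doublet caller were used.

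Named are the 15 genes most enriched over other kept barcodes, the 10 highest and 10 lowest enriched genes between AD and WT, the 5 highest and 5 lowest of all measured genes without markers of other cell types, the 10 highest and 10 lowest in lymphatic cells, up to 4 genes of each list with the largest ratios, any list gene needed to say what the list does, and the rule genes. The enriched genes between AD and WT passed 4-fold over other kept barcodes in the library where they were higher. Those list genes beyond the largest ratios were picked after their values were seen. Of 597 list genes, 4 symbols were not matched. Sums and intervals were computed in Python 3.11.15 with scipy 1.17.1 and numpy 2.4.6, tables were handled with pandas 2.3.3, and figures were drawn with matplotlib 3.10.9. The ratio step was tested on simulated data.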

Additional observations from a re-analysis of the deposited data

Results flagged for a closer look

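Piezo2, a mechanosensitive channel on the lymphatic list, stood on opposite sides in the 2 libraries. Its log2 ratio of lymphatic over other endothelial cells was −1.24 in AD, from 1 UMI in lymphatic cells and 21 UMIs in 13 others, and 3.39 in WT, from 20 UMIs in 5 lymphatic cells and 8 UMIs in 5 others. With at least 3 lymphatic rule genes per lymphatic cell, an alternative chosen after seeing the data, these ratios were −1.10 in AD and 4.16 in WT. The difference between the libraries was not tested, and the AD value rests on a single lymphatic UMI.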

How the results depend on the processing

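Across the alternatives, 734 values of named genes stayed within counting error of the reported one and 44 moved. A further 3, of genes past 2-fold, changed sign. For list medians 628 stayed within the spread of their genes, 17 moved and 4, of lists clear of 0 by that spread, changed sign. Counting small values too, 15 of 41 named genes and 23 of 31 list medians had the other sign under at least 1 alternative, and 4 genes and 20 medians when the subtraction below is left out. The endothelial share ratio of 0.295 became 0.427 at a mitochondrial limit of 50% and 0.497 with none. With at least 2 rule genes instead of 3, 276 genes passed 2-fold upwards in AD and 317 downwards. With at least 100 UMIs per gene 16 were higher in AD and 21 lower, and with no minimum beyond 1 UMI 3734 were higher and 2778 lower. Weighting every cell equally gave 199 higher genes, and subtracting the ratio of the other kept barcodes 225, or 61.3% of the called genes against 48.7% as reported. That subtraction also turned the sign of Adgrl4 (0.37), Scgb3a1 (1.24), Gpihbp1 (1.37) and the median of the rule markers (0.52), and moved the median of all genes to 0.10. The other kept barcodes held few UMIs of Adgrl4, Scgb3a1 and Gpihbp1, the last with 2 in AD and 8 in WT. The Notch median was −0.17 with at least 2 rule genes and −0.00984 with at least 100 UMIs, where 2 genes were left. The venous median was 0.13 without lymphatic cells and cells with stromal markers, an alternative chosen after seeing the data. The causes of these moves were not tested. Over 21 alternatives the capillary median ran from −1.30 to −0.61, the arterial from 0.06 to 0.83, the immediate early from 0.47 to 0.74 and the basement membrane from −0.77 to −0.30. No paired analysis was possible because each genotype has 1 library, which also leaves no replicate to leave out. Depth limits single genes, since 30 UMIs over both libraries is the least measured, and 8 lymphatic cells per library leave wide intervals.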
